A study of Mus musculus with 12 samples.

Results

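The habenula and thalamus marker genes were 10 genes, found by symbol among the 25239 genes of the deposited count table: 6 habenula members (Chrnb4, Chrna3, Gpr151, Pou4f1, Tac2 and Nwd2) and 4 thalamus members (Calb2, Tcf7l2, Prkcd and Lef1). The libraries came from male C57BL6/J wild-type (WT) mice aged 24 months. Control mice were set against mice kept for 3 hours a day, over 15 days, at 40 ± 0.5 °C and 60 ± 5% relative humidity, a treatment called periodic heat stress. Messenger RNA of brain and of liver was sequenced in 3 control and 3 heat stress libraries per tissue, 12 libraries in all. The labels name the tissue only as brain, and each sample was a weighed piece cut from frozen tissue, so which brain regions a library held, and in what proportion, is not given. Replicates carry a number within the group, and nothing in the labels ties a brain library to a liver library of the same mouse.

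The medial habenula is a small nucleus at the top of the thalamus whose neurons carry an unusually dense supply of nicotinic acetylcholine receptors built from the alpha3 and beta4 subunits, and it sends its output to the interpeduncular nucleus. Its neurons are laid down and maintained by the POU homeodomain factor encoded by Pou4f1 (Brn3a). The thalamus relays sensory and motor signals to the cortex, and the TCF/LEF factors, the nuclear partners of beta-catenin in Wnt signalling, are among the transcription factors that its neurons keep in adulthood. In pieces of whole tissue, fewer cells of a type and less RNA per cell cannot be told apart.

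Total counts ran from 10552686 to 14597197 in the brain libraries and from 10466198 to 15609040 over all 12, and levels are given as CPM, the counts scaled to library size after TMM normalization. The test was edgeR's quasi-likelihood test over all 14806 genes that passed the filter on low counts in brain, and differences are heat stress minus control on the log2 scale. No gene in brain passed an adjusted p-value of 0.05 (the smallest was 0.170), while 2969 genes had an unadjusted p-value under 0.05 and DESeq2 called 604 (7.56%) of the 7987 genes to which it gave an adjusted p-value. One brain library, control replicate 3, stood apart in thalamic transcripts, and the values it carries are given with and without it.

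All 10 members passed the filter in brain, and 4 of the 6 habenula members (Chrnb4, Chrna3, Gpr151 and Pou4f1) were 2.96 to 4.44 times lower in heat stress than in control by the edgeR fit. Tac2 and Nwd2, the other two, differed by far less, at 1.13 and 1.37 times. Of the thalamus members, Lef1 was lower by 2.80 times, whereas Calb2 was close between the means. The lower heat stress means of Tcf7l2 and Prkcd moved with control replicate 3, without which the log2 difference of Tcf7l2 turned to 0.51 and that of Prkcd shrank to -0.21. Pou4f1 also moved with that library, without which its log2 difference was -1.31 and its edgeR p-value 0.0725. By unadjusted p-value, 5 of the 10 members were lower under 0.05 and 0 higher in edgeR, where 10% of all tested genes were lower and 10% higher at that limit; 3 of the 10 had groups that did not overlap, all lower in heat stress, against 12% of tested genes lower and 12.9% higher without overlap. These counts are a description and no support, since the filter asked for 3 libraries at 0.868 CPM or more, and Chrnb4, Chrna3, Gpr151 and Pou4f1 had only 0, 1, 2 and 1 such libraries in heat stress, so they would not have passed on that group alone. Of the 6 members that would, 1 (Lef1) was lower at that limit. With no filter, the edgeR p-values of Chrnb4, Chrna3, Gpr151 and Pou4f1 were 0.00142, 0.00136, 0.000260 and 0.00821. No member passed the adjusted p-value in edgeR, nor in DESeq2, which had 6 members lower under an unadjusted 0.05 (6.99% of all genes it tested) and gave an adjusted p-value to only 3 of them all, Nwd2, Calb2 and Tcf7l2. Gpr151, Chrnb4 and Lef1 are also among the genes the study singled out on these same samples, so their direction here is not independent evidence.

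**Figure D1:**
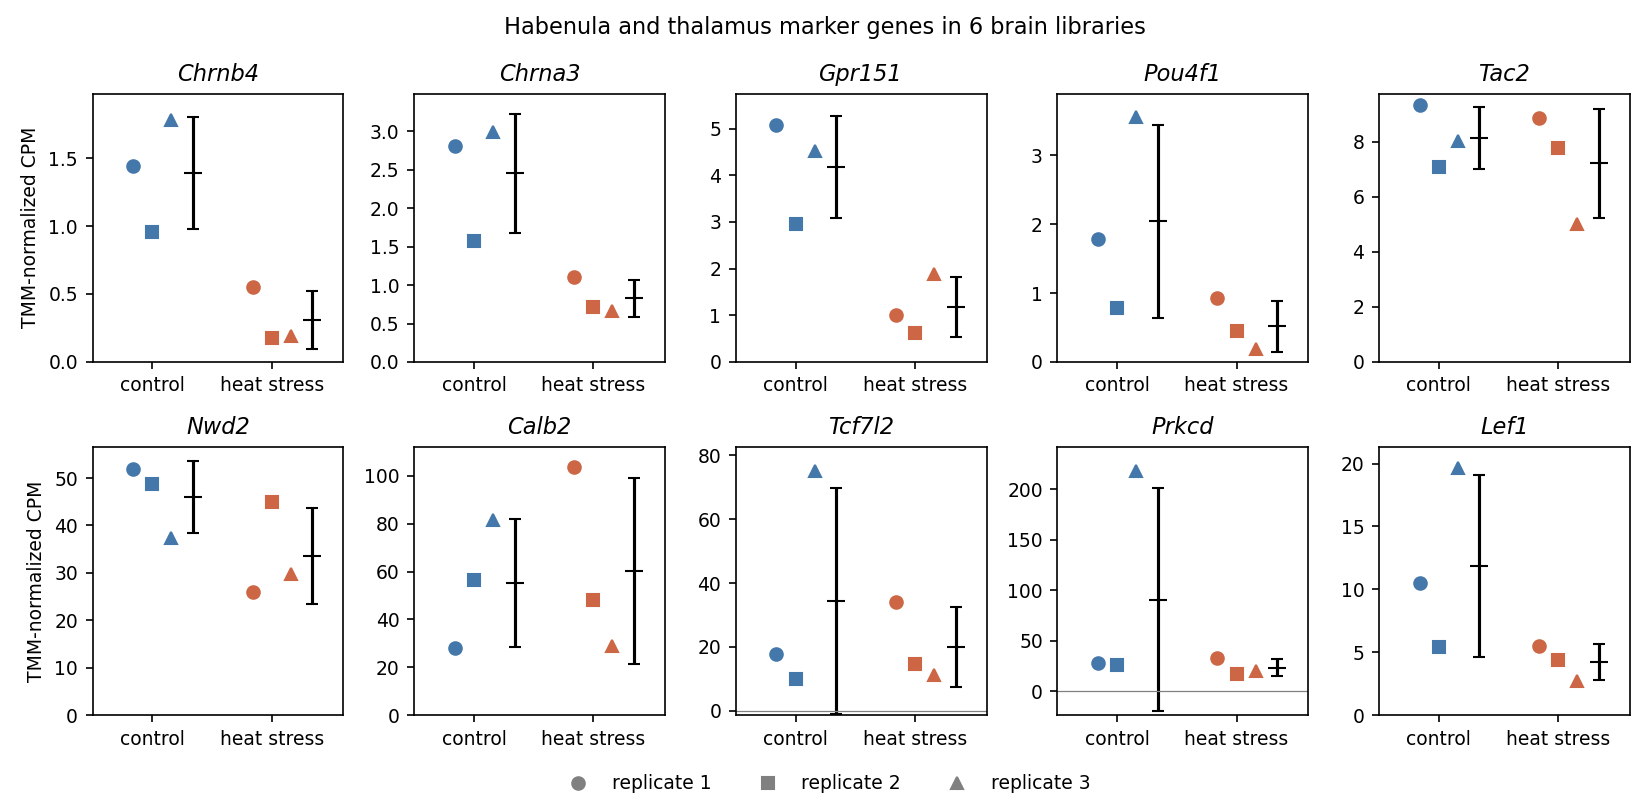
TMM-normalized CPM (y axis, 1 scale per gene) of the 10 marker genes in the 3 control (blue) and 3 heat stress (orange) brain libraries, with the replicate number given by the symbol and the mean ± SD (n = 3) beside each group. Chrnb4, Chrna3 and Gpr151 show separated groups, and for Tcf7l2 and Prkcd the control SD is set by replicate 3, at 75.1 and 219 CPM.

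The nicotinic members are neighbours in the genome. Chrna5, Chrna3 and Chrnb4, which encode the alpha5, alpha3 and beta4 subunits of acetylcholine-gated cation channels, lie side by side on chromosome 9 of mm10 (GENCODE M21): Chrna5 at chr9:54980880-55007779 on the plus strand, Chrna3 at chr9:55010111-55026562 and Chrnb4 at chr9:55028154-55048779, both on the minus strand. Only 2331 bases separate Chrna5 from Chrna3, and 1591 separate Chrna3 from Chrnb4. Chrna5 is no member, and its values are given beside the pair because the subunits of the 3 genes can assemble into the same receptors. In pieces of whole tissue, the reads of the 3 genes need not come from the same cells. The windows from 250 bases before to 50 bases after the start of each gene, taken from RefSeq (GRCm38.p6) and read along the gene's own strand, are printed because the counts of these neighbours diverged between the groups. Capitals mark the GC box letters GGGCGG and the TCF/LEF letters CTTTGAT, each searched on both strands.
Chrna5: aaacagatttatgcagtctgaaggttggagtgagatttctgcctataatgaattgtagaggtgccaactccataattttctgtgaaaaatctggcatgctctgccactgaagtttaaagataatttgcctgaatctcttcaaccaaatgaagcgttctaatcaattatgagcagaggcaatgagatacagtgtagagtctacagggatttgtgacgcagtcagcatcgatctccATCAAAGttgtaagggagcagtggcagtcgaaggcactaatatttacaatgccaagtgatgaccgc
Chrna3: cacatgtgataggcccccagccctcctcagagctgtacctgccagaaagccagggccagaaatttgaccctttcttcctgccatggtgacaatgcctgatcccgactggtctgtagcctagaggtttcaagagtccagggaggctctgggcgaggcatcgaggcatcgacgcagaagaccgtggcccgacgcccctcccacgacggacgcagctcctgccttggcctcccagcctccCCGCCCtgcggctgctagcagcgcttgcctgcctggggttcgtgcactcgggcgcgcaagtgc
Chrnb4: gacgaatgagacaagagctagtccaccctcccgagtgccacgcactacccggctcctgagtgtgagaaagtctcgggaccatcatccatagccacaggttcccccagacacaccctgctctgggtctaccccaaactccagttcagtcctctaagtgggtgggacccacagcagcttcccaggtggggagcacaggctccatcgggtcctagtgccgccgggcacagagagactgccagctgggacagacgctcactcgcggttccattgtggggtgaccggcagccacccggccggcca
These windows are chr9:54980630-54980929, chr9:55026513-55026812 and chr9:55048495-55048794. The Chrna3 window was 64.3% and the Chrnb4 window 63.0% G or C, while the Chrna5 window was 41.3%; another RefSeq start of Chrna5, with its window at chr9:54981238-54981537, held 4 GC boxes. The Chrna3 window held 1 GC box and the Chrnb4 window none, and 35.7% of the 32851 promoter windows in the table hold at least 1. The letters CTTTGAT occurred in the printed Chrna5 window and in that of Tac2, beside 3.73% of all windows. They were in no window of the other members searched, Lef1 and Tcf7l2 among them. The letters ATTAAT, the core recognised by POU4F factors, were in none of the 15 windows of these 9 genes (8 members and Chrna5) and in 4.75% of all windows. A match of letters is a description of the window only.

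Chrnb4, the beta4 subunit that with alpha3 forms the main nicotinic receptor of the medial habenula and of autonomic ganglia, was counted 21, 11 and 22 times in control replicates 1, 2 and 3 and 6, 2 and 2 times in heat stress replicates 1, 2 and 3. Every heat stress library lay below every control library, and the counts of 2 carry a counting interval of 0.242 to 7.22 reads (exact Poisson, 95%). In CPM the group means were 1.39 ± 0.41 (SD, n = 3) in control and 0.307 ± 0.213 (SD, n = 3) in heat stress. The log2 difference was -2.15 ± 0.52 (SE) with an edgeR p-value of 0.00237 and an adjusted p-value of 0.170. Summed over each group, 54 reads stood against 10, a 4.58-fold lower level in heat stress for the depth sequenced, with an exact interval of 2.31 to 10.1 that covers counting error only. Chrnb4 passed the filter only through the control libraries, since none of the heat stress counts reached 10. Entry in this way favours genes that are lower in heat stress, so the difference is a description and no support.

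Chrna3, the alpha3 subunit, was counted 41, 18 and 37 times in the control libraries and 12, 8 and 7 times in the heat stress libraries. Again the groups did not overlap, and control replicate 2 was the control library nearest to the heat stress range. Mean levels were 2.46 ± 0.77 CPM in control and 0.828 ± 0.243 CPM in heat stress (SD, n = 3 each), and the log2 difference of -1.56 ± 0.38 (SE) had an edgeR p-value of 0.00254 and an adjusted p-value of 0.170. The number of Chrna3 reads per Chrnb4 read was 1.95, 1.64 and 1.68 in control against 2, 4 and 3.50 in heat stress, the higher values resting on only 2 Chrnb4 reads each.

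Chrna5 had a smaller difference than its neighbours. Its counts were 58, 23 and 48 in control against 41, 24 and 30 in heat stress, so that the groups overlapped, and the log2 difference was -0.18 ± 0.34 (SE; edgeR p-value 0.606, adjusted 0.789). Within each library, Chrna5 reads per Chrna3 read were 1.41, 1.28 and 1.30 in control against 3.42, 3.00 and 4.29 in heat stress. Per Chrnb4 read the Chrna5 ratio ran from 2.09 to 2.76 in control and from 6.83 to 15.0 in heat stress. Neither ratio overlapped between the groups, and because both values of a ratio come from the same library, library size cancels in it. With 3 against 3 libraries an exact two-sided permutation test cannot go below 0.10, so these ratios were not tested, and they were chosen after the counts were seen. Chrna3 and Chrnb4 would not have passed the filter on the heat stress libraries alone, so the ratios are a description and no support.

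Of the 16 nicotinic receptor subunit genes, 8 passed the filter in brain. All 8 differences were negative, with a median of -0.60 against -0.00297 over all tested genes, and 3 of them had an unadjusted p-value under 0.05: Chrnb4, Chrna3 and Chrnb2, beside 10% of all tested genes. Chrnb4 and Chrna3 passed the filter through their control libraries, so the count is no support. Chrnb2, the beta2 subunit that is common throughout the forebrain, had levels of 63.2, 46.3 and 61.0 CPM in control against 46.2, 34.8 and 46.9 CPM in heat stress. Its log2 difference of -0.42 ± 0.16 (SE; edgeR p-value 0.0287, adjusted 0.208) was smaller than that of Chrnb4 or Chrna3, and its groups overlapped. None was higher at that limit. With 1 library left out 2 to 5 were lower, where 5.90% to 13.3% of all genes were lower. The count was 5 both without control replicate 2 (13.3% of all genes) and without heat stress replicate 1 (7.12%). Without control replicate 3 the median was -0.36 and 7 of 9 tested differences were negative. Without heat stress replicate 1 the median was -1.08, with all 9 negative.

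Gpr151 encodes an orphan G protein-coupled receptor carried on the axons of habenular neurons (chr18:42577881-42579652, minus strand). Its counts were 74, 34 and 56 in the control libraries and 11, 7 and 20 in the heat stress libraries. The lowest control library, replicate 2 at 2.96 CPM, was still above the highest heat stress library, replicate 3 at 1.89 CPM. The means were 4.19 ± 1.09 CPM and 1.18 ± 0.65 CPM (SD, n = 3 each), with a log2 difference of -1.84 ± 0.40 (SE), an edgeR p-value of 0.00122 and an adjusted p-value of 0.170. This was the smallest p-value among the members. The order of the heat stress libraries differed from that of the nicotinic pair: heat stress replicate 3 had the most Gpr151 reads of its group and the fewest Chrna3 reads.

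Pou4f1, the homeodomain factor of habenular neurons (chr14:104461676-104467999, minus strand), was counted 26, 9 and 44 times in control and 10, 5 and 2 times in heat stress. Control replicate 2, at 0.785 CPM, fell inside the heat stress range, whose highest library, replicate 1, was at 0.922 CPM. The log2 difference was -1.95 ± 0.65 (SE) with an edgeR p-value of 0.0146 and an adjusted p-value of 0.178. Over the summed reads, 79 against 17, the level was 3.94 times lower in heat stress with an exact counting interval of 2.31 to 7.11. Without control replicate 3 the difference was -1.31 and the edgeR p-value 0.0725. Of the POU class 4 genes and neuronal bHLH partners, 3 passed the filter and only Pou4f1 was lower at an unadjusted p-value under 0.05, beside 10% of all tested genes, and it would not have passed on the heat stress libraries alone; Nhlh2, at 0.12 ± 0.58, and Neurod1, at -0.04 ± 0.23, had edgeR p-values of 0.841 and 0.874.

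Tac2, which encodes the tachykinin neurokinin B (chr10:127724478-127731768, plus strand), had a smaller difference than Chrnb4 and Chrna3, a contrast that was not tested. Its counts were 136, 81 and 99 in control against 96, 87 and 53 in heat stress. The groups overlapped, and the log2 difference was -0.17 ± 0.24 (SE; edgeR p-value 0.482, adjusted 0.702). Tac2 reads per Gpr151 read were 1.84, 2.38 and 1.77 in control against 8.73, 12.4 and 2.65 in heat stress, and Tac2 reads per Chrna3 read were 2.68 to 4.50 in control and 7.57 to 10.9 in heat stress. Both ratios were higher in every heat stress library than in any control library. Their denominators, Gpr151 and Chrna3, were lower in heat stress and would not have passed the filter on that group alone. The reads of Tac2 and of these genes also need not come from the same cells. The ratios are therefore a description and no support.

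Among the other tachykinin genes, Tac1, the substance P precursor, went the opposite way. The study had listed Tac1 as higher on these same samples, so its direction is not independent evidence. Its levels were 22.9, 61.9 and 28.9 CPM in control against 86.6, 69.0 and 107 CPM in heat stress, with no overlap, and its log2 difference was 1.21 ± 0.35 (SE; edgeR p-value 0.00752, adjusted 0.170; DESeq2 adjusted p-value 0.00972). Tac1 is also made by striatal projection neurons, whose 12 markers summed to 526 to 922 CPM in the control and 896 to 2012 CPM in the heat stress libraries, and their part in the Tac1 values was not tested. Tacr3, the neurokinin B receptor, stood at 0.45 ± 0.51 (SE; edgeR p-value 0.397), and Tacr1, the substance P receptor, at 0.40 ± 0.26 (SE; edgeR p-value 0.163). Of the 4 tachykinin genes tested, 0 were lower and 1 was higher with an unadjusted p-value under 0.05, beside 10% of all tested genes each way.

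Nwd2, a protein with NACHT and WD repeat domains (chr5:63649102-63810546, plus strand), had the highest counts of the habenula members, 758, 558 and 463 in control against 281, 503 and 316 in heat stress. Heat stress replicate 2, at 45.0 CPM, lay inside the control range of 37.4 to 51.9 CPM. The log2 difference of -0.45 ± 0.21 (SE) had an edgeR p-value of 0.0569 and an adjusted p-value of 0.262. Without heat stress replicate 2 the difference was -0.72 and the edgeR p-value 0.00289, and without heat stress replicate 1 the p-value was 0.191. With all libraries kept, the p-value was 0.0415 in DESeq2 and 0.0390 in edgeR with no filter. The side of 0.05 on which it fell thus depended on 1 library and on the processing.

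Other genes known from the medial habenula did not move as a group. Of 12 such genes, all tested, 6 differences were negative and 6 positive, with a median of 0.08. With 1 library left out 1 to 2 were lower and 1 to 4 higher at an unadjusted p-value under 0.05. In those fits 5.90% to 13.3% of all genes were lower and 4.85% to 13.6% higher, with the 4 without heat stress replicate 2 (4.85%). With all libraries kept, 1 was lower and 2 were higher. Lrrc55, an auxiliary subunit of BK potassium channels, was the lower one, at 51.0, 30.3 and 37.7 CPM in control against 22.3, 22.1 and 27.4 CPM in heat stress, a log2 difference of -0.73 ± 0.19 (SE; edgeR p-value 0.00376, adjusted 0.170) with no overlap. The higher ones were Tac1 and Slc5a7, the choline transporter of cholinergic terminals, at 0.92 ± 0.37 (SE; edgeR p-value 0.0356, adjusted 0.223). Chat, the acetylcholine-synthesising enzyme of ventral medial habenula neurons and of other cholinergic neurons, stood at 0.19 ± 0.36 (SE; edgeR p-value 0.604), and Slc17a6, the vesicular glutamate transporter VGLUT2, at -0.05 ± 0.63 (SE; edgeR p-value 0.938). DESeq2 gave adjusted p-values of 0.0228 for Lrrc55 and 0.00972 for Tac1. Beside the 1 gene lower and 2 higher in this list, 10% of all tested genes were lower and 10% higher at that limit, and the cholinergic genes of the list are also expressed in other brain regions.

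**Figure D2:**
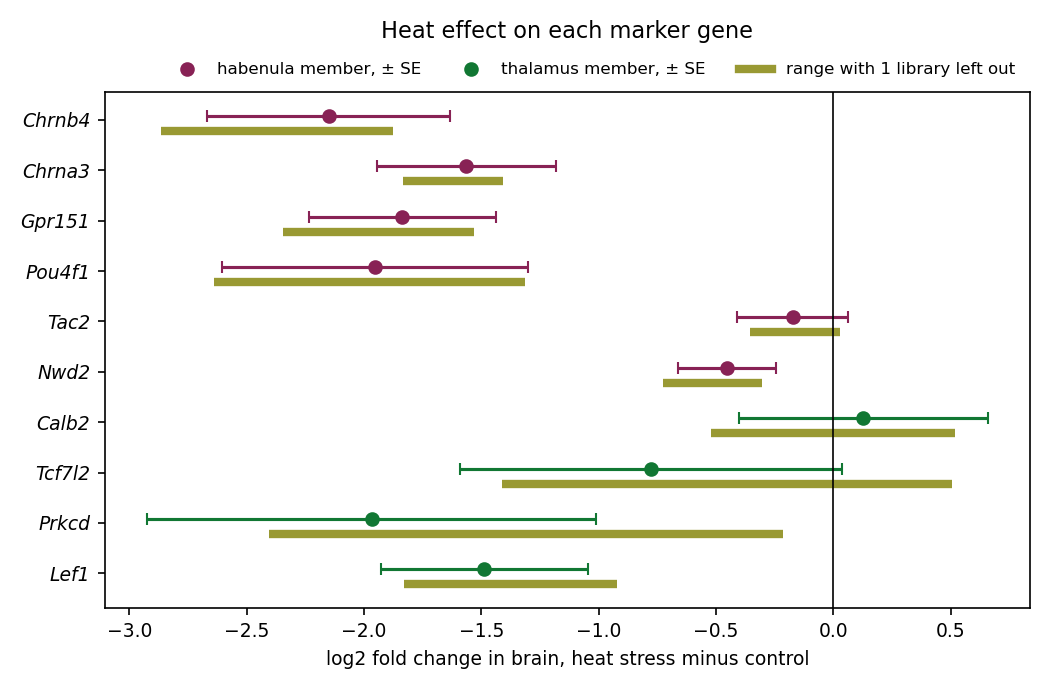
The log2 fold change in brain, heat stress minus control (x axis), of each marker gene: points with bars are the estimate ± SE over 3 and 3 libraries, and thick bars span the 6 values obtained with 1 library left out. Chrnb4, Chrna3, Gpr151, Pou4f1 and Lef1 stay below 0 throughout, while the bars of Tcf7l2, Calb2 and Tac2 cross 0 and that of Prkcd ends at -0.21.

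Among the thalamus members, control replicate 3 stood apart for Tcf7l2 and Prkcd. Tcf7l2, a TCF/LEF factor that marks thalamic and medial habenula neurons in the adult brain (chr19:55741820-55933654, plus strand), was counted 261, 116 and 929 times in control and 371, 165 and 118 times in heat stress. Control replicate 3, at 75.1 CPM, was 5.09 times the median of the other 5 brain libraries, which ran from 10.1 to 34.2 CPM. The log2 difference was -0.78 ± 0.81 (SE; edgeR p-value 0.375, adjusted 0.621), and without control replicate 3 it turned to 0.51.

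Prkcd, the delta isoform of protein kinase C and a marker of first-order thalamic relay neurons (chr14:30595354-30626210, minus strand), showed the same library even more strongly. Its counts were 400, 302 and 2703 in control against 359, 188 and 208 in heat stress, so control replicate 3, at 219 CPM, was 8.30 times the median of the others. The other 5 libraries ran from 16.8 to 33.1 CPM, with heat stress replicate 1 the highest of them. The log2 difference of -1.97 ± 0.96 (SE) had an edgeR p-value of 0.0883 and an adjusted p-value of 0.311, and without control replicate 3 it was -0.21 (edgeR p-value 0.441). DESeq2 set aside this gene's p-value. Of the 9 protein kinase C genes, all tested, 0 were lower and 0 higher at an unadjusted p-value under 0.05, beside 10% of all tested genes each way. With 1 library left out 0 to 2 were lower and 0 to 1 higher. In those fits 5.90% to 13.3% of all genes were lower and 4.85% to 13.6% higher. DESeq2 had 1 lower, beside 6.99% of all genes it tested. Prkca, the alpha isoform, had a difference of -0.36 ± 0.18 (SE; edgeR p-value 0.0775).

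Lef1, the second TCF/LEF factor of the set (chr3:131110471-131224356, plus strand), was counted 153, 62 and 243 times in control and 60, 49 and 29 times in heat stress. The groups met at a single point, heat stress replicate 1 at 5.53 CPM against control replicate 2 at 5.41 CPM. The log2 difference was -1.49 ± 0.44 (SE) with an edgeR p-value of 0.00792 and an adjusted p-value of 0.170. Control replicate 3, at 19.6 CPM, was 3.63 times the median of the others, and without it the difference was -0.92 with an edgeR p-value of 0.0368. Lef1 is also made by brain endothelium, where beta-catenin signalling maintains the barrier. The 8 endothelial markers summed to 181 to 331 CPM in the control and 127 to 168 CPM in the heat stress libraries, and their part in the Lef1 result was not tested.

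The other TCF/LEF factors and Wnt feedback targets differed by less. Of 9 tested genes all had negative differences, with a median of -0.35, and 3 were lower at an unadjusted p-value under 0.05: Lef1, Nkd1 and Axin2, beside 10% of all tested genes. Nkd1, a Wnt-induced antagonist of Dishevelled, had levels of 15.9, 16.1 and 20.3 CPM in control against 13.8, 14.0 and 12.6 CPM in heat stress without overlap, a log2 difference of -0.37 ± 0.15 (SE; edgeR p-value 0.0327, adjusted 0.217). Axin2, a scaffold of the beta-catenin destruction complex and a standard readout of Wnt signalling, stood at -0.35 ± 0.15 (SE; edgeR p-value 0.0472, adjusted 0.244), with overlapping groups. Only 1 gene of the list was lower at that limit without control replicate 3, without heat stress replicate 1 or without heat stress replicate 2. This is near the 8.12%, 7.12% and 6.23% of all genes lower in those fits. DESeq2 also had 1, beside 6.99% of all genes it tested.

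Calb2, which encodes the calcium-binding protein calretinin (chr8:110137502-110168210, minus strand), had its lowest brain level in a control library and its highest in a heat stress library, yet the groups were alike in range. Its levels were 28.2, 56.4 and 81.5 CPM in control against 104, 48.2 and 28.9 CPM in heat stress. The log2 difference was 0.13 ± 0.53 (SE; edgeR p-value 0.817, adjusted 0.913). It was -0.52 without heat stress replicate 1 and 0.52 without control replicate 3. Calb2 is not particular to the thalamus. The summed level of 7 hypothalamic markers was lowest in control replicate 1, at 10.9 CPM, and highest in heat stress replicate 1, at 304 CPM, the libraries that also held the lowest and highest Calb2 levels; its part in the Calb2 values was not tested. Of 3 tested genes of the hexa EF-hand family and parvalbumin, 0 were lower and 0 higher at an unadjusted p-value under 0.05, beside 10% of all tested genes each way, and 1 was higher in DESeq2, with RLE size factors, with library totals, with no filter and with the replicate block. Calb1 stood at 0.41 ± 0.18 (SE; edgeR p-value 0.0505) and Pvalb at -0.13 ± 0.20 (SE; edgeR p-value 0.544).

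The shift of control replicate 3 extended over thalamic genes outside the set. All 12 other thalamic genes reached their highest brain level in that library, as did 3 of the 4 thalamus members, Calb2 being the exception. Their summed level was 221, 237 and 667 CPM in control against 295, 221 and 203 CPM in heat stress, and the sum of the 4 members was 83.9, 98.3 and 395 CPM in control against 177, 84.2 and 62.4 CPM in heat stress. Plekhg1 and Synpo2, both strong thalamic transcripts, were 4.17 and 4.81 times the median of the other 5 libraries there. Over the groups, all 12 differences were negative with a median of -0.90, and 2 genes were lower at an unadjusted p-value under 0.05, near the 10% of all tested genes: Synpo2 at -1.55 ± 0.60 (SE; edgeR p-value 0.0318, adjusted 0.216) and Rgs16 at -1.11 ± 0.45 (SE; edgeR p-value 0.0388, adjusted 0.230). Rora, an orphan nuclear receptor of thalamic and other neurons, stood at -0.31 ± 0.27 (SE; edgeR p-value 0.277). Without control replicate 3, only 5 of the 12 were negative and the median was 0.06. At that limit 0 were then lower and 1 higher, beside 8.12% and 6.44% of all genes. The count was also 0 lower, with all 12 differences still negative, without heat stress replicate 2 (6.23% of all genes) and without heat stress replicate 3 (9.97%). It was 5 lower without control replicate 2, where 13.3% of all genes were lower.

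Without that library the difference was -1.41 for Chrna3, -1.78 for Gpr151 and -1.31 for Pou4f1, with edgeR p-values of 0.0113, 0.00475 and 0.0725. These genes, and Chrnb4, would not have passed the filter on the heat stress libraries alone, so the values are a description and no sign of stability. Control replicate 2 was the control library with the lowest Chrnb4, Chrna3, Gpr151, Pou4f1 and Lef1, and it was never the highest library for any member. Control replicate 3 was the highest brain library for 6 of the 10 members, and heat stress replicate 3 the lowest for 4.

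**Figure D3:**
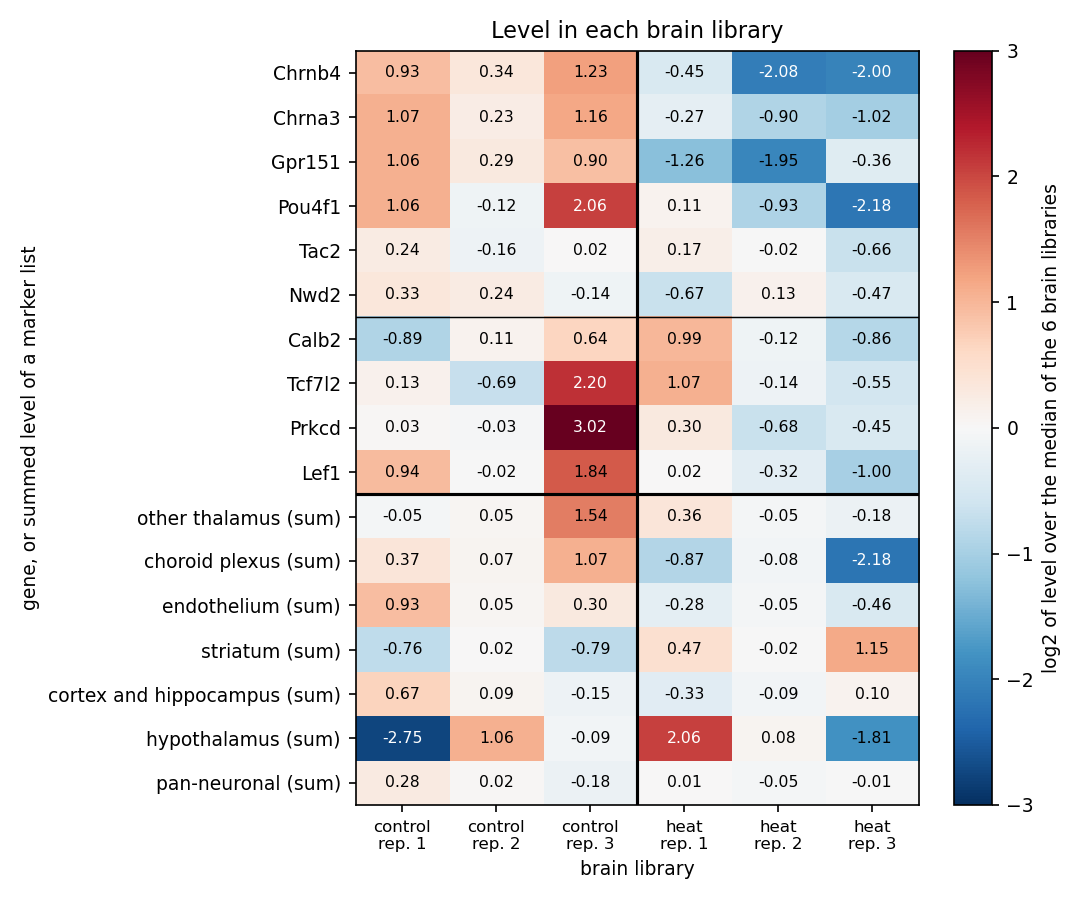
Log2 of the TMM-normalized CPM in each brain library over the median of the 6 brain libraries (color), for the 10 marker genes (6 habenula, then 4 thalamus) and, under the lower thick line, for summed marker lists of other regions and cell types. The rows of Chrnb4, Chrna3 and Gpr151 change sign between control and heat stress, while the Tcf7l2, Prkcd and Lef1 rows are highest in control replicate 3, at 2.20, 3.02 and 1.84, and the Calb2 row is highest in heat stress replicate 1, at 0.99.

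Markers of other regions and cell types also differed between the groups, counted here at an unadjusted edgeR p-value under 0.05, where 10% of all tested genes were lower and 10% higher. Striatal markers were higher in heat stress, 11 of 12 with a median of 1.19. Without control replicate 1 the count was 4 of 12, beside 5.12% of all genes higher. Their summed level was 526 to 922 CPM in control and 896 to 2012 CPM in heat stress. Choroid plexus markers were lower for 7 of 10 (median -1.38), with sums of 1262 to 2513 CPM in control and 264 to 1137 CPM in heat stress. Without control replicate 3 the count was 4 of 10, beside 8.12% of all genes lower. Endothelial markers were lower for 7 of 8 (median -0.99, and -0.55 without control replicate 1). Their sums were 181 to 331 CPM in control and 127 to 168 CPM in heat stress. Across the choroid plexus and endothelial lists the summed levels did not overlap between the groups. In the other lists the counts were near the share of all tested genes or rested on few genes: 1 of 8 cortical and hippocampal markers was lower (median -0.37), 0 of 6 tested hypothalamic markers were lower or higher, 1 of 2 tested cerebellar markers was higher, 1 of 9 oligodendrocyte markers was higher (median 0.10), 1 of 5 astrocyte markers was lower (median -0.20) and 0 of 6 pan-neuronal markers were lower or higher (median -0.07). Of 3 tested hepatocyte markers the 1 lower was Ttr, which is also a choroid plexus marker, at -1.40, while Alb stood at 1.11 and Cyp2e1 at 0.23, neither under that limit. The summed pan-neuronal level was 5477 to 7522 CPM in control and 5979 to 6234 CPM in heat stress. The study had reported Rarb, Adora2a, Gpr6, Kl, Aqp1, Slc4a5, F5, Tmem72 and Pecam1 as changed on these same samples. The lists were chosen with earlier results of these data known, so their counts are a description and no independent evidence. The part of these shifts in the values of the marker genes was not tested.

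**Figure D4:**
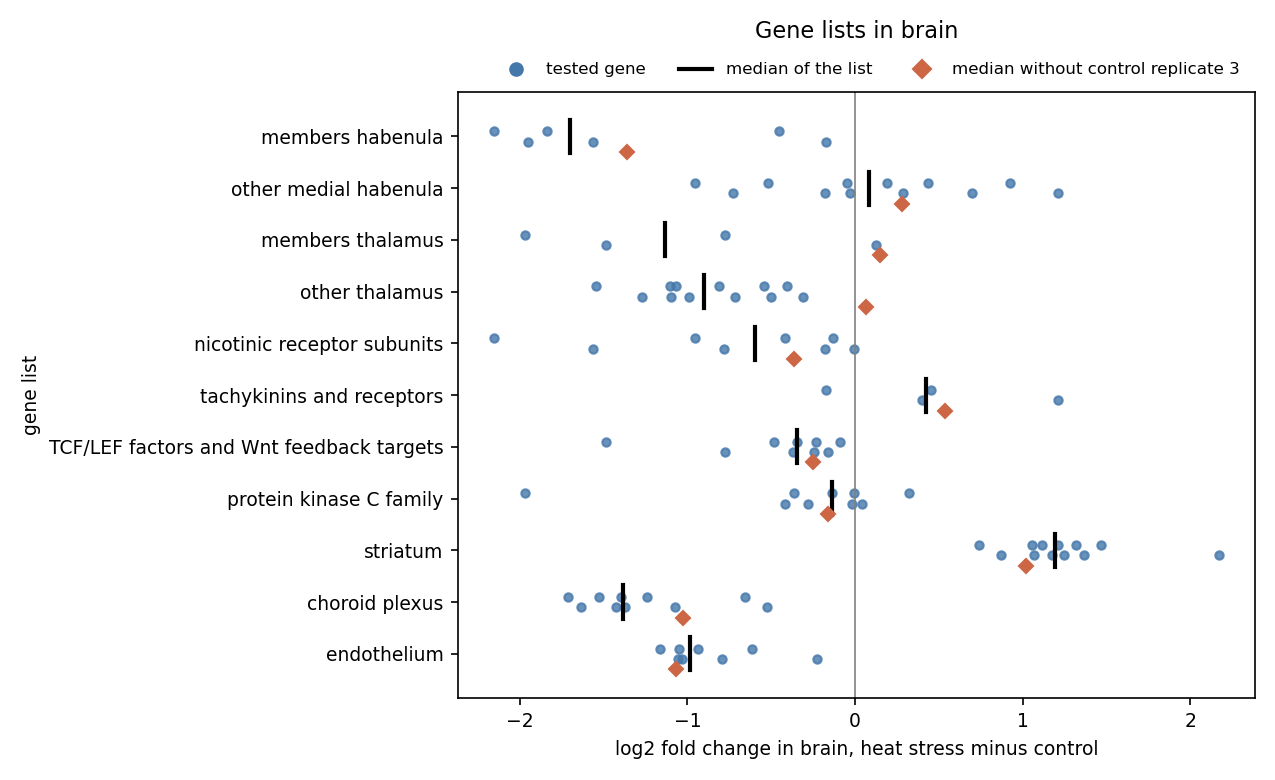
Log2 fold change in brain, heat stress minus control (x axis), of the tested genes of 11 gene lists (points), with the median of each list (black bar) and the median without control replicate 3 (diamond). The diamonds of the thalamus members and of the other thalamic genes lie at 0.15 and 0.06, and that of the habenula members at -1.36; 4 of those 6 genes would not have passed the filter on the heat stress libraries alone.

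Levels between genes were compared per kilobase of exon, from the merged exons of GENCODE M21. In control brain, Calb2 was the most abundant member at 31.8 ± 15.3 CPM per kilobase, then Prkcd at 16.4 ± 20.0, Tac2 at 5.90 ± 0.82, Nwd2 at 4.41 ± 0.73, Tcf7l2 at 3.92 ± 4.05, Gpr151 at 2.36 ± 0.62, Lef1 at 1.35 ± 0.82, Chrna3 at 0.467 ± 0.147, Pou4f1 at 0.437 ± 0.301 and Chrnb4 at 0.374 ± 0.111 (SD, n = 3). Most neighbours in this order lay within each other's spread, and the last 3 could not be ordered by group mean and SD. Within a library, Chrna3 reads per Chrnb4 read were 1.64 to 4 in brain, for exons of 5265 and 3723 bases. The place of Prkcd and Tcf7l2 rested on control replicate 3: without it their means were 4.85 and 1.59 CPM per kilobase, below Tac2 at 5.94 and Gpr151 at 2.27, and Prkcd was beside Nwd2 at 4.82, while Calb2 at 24.3 was still the highest. Pou4f1 was then at 0.275, below Chrnb4 at 0.322 and Chrna3 at 0.416. In heat stress brain the same scale gave 0.157 ± 0.046 for Chrna3, 0.111 ± 0.080 for Pou4f1 and 0.0825 ± 0.0573 for Chrnb4, beside 5.23 ± 1.44 for Tac2 and 0.934 ± 0.263 for Chrna5, which had been at 1.05 ± 0.36 in control.

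The genes whose brain profile was most like the mean standardized profile of the 6 habenula members were Cyp2d22, Atp1b2, Pcdhga5, Slc20a2, 2700049A03Rik, Dcaf1, Usp8, Scrt1, Rps6ka1 and Pcdhgc4, with Pearson correlations of 0.988 to 0.995 over 6 libraries. None of these is a member of the habenula or thalamus lists, and Atp1b2, a glial sodium pump subunit, ran at 410 to 507 CPM in control and 278 to 367 CPM in heat stress. Of 14796 genes compared, 331 (2.24%) had a correlation above 0.9. Of the thalamus members, Lef1 reached 0.90, Prkcd 0.60, Tcf7l2 0.46 and Calb2 0.11. The points share the libraries and the group difference, so these correlations describe 6 libraries and are given without a test.

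Liver served as the tissue without habenula. Chrnb4, Chrna3, Gpr151 and Tac2 had 0 counts in all 6 liver libraries, which allows at most 0.192 to 0.287 CPM per library (3 counts). Pou4f1 had at most 3 counts in a liver library, Calb2 at most 2, Lef1 at most 1 and Nwd2 from 2 to 8. Tcf7l2 and Prkcd, which are widely expressed, were tested there. Tcf7l2 was counted 200, 125 and 193 times in control and 169, 210 and 155 times in heat stress liver, and Prkcd 119, 90 and 84 times in control and 114, 127 and 99 times in heat stress. Neither differed beyond its spread, with log2 differences of -0.06 ± 0.23 and 0.14 ± 0.19 (SE; edgeR p-values 0.814 and 0.479), beside 5.84% of 12296 tested genes under an unadjusted 0.05 in liver. The liver minus brain difference of the heat effect was 0.72 ± 0.91 for Tcf7l2 and 2.10 ± 1.04 for Prkcd (SE; edgeR p-values 0.445 and 0.0699, adjusted 0.803 and 0.537), where 9.64% of genes were under an unadjusted 0.05; without brain control replicate 3 they were -0.53 and 0.39. For the other 8 members the difference between tissues was not tested.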

How the data were processed

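RNA of brain and liver was sequenced in 12 libraries of 4 groups. The authors deposited raw read counts per gene symbol, not normalized. The submitters' processing notes name FastQC 0.11.9, Trimmomatic 0.39, HISAT2 2.2.1, featureCounts of Subread 2.0.1, DESeq2 1.22.2 and mm10, and the paper's methods also describe Tophat2 with HTSeq. Strand use, annotation release and treatment of shared reads are not given in the sources used here. Deposited tables of log2 fold changes and p-values hold the authors' comparisons and were not used.

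The counts were analysed in R 4.3.3 with edgeR 4.0.16 (robust quasi-likelihood test, TMM, filterByExpr with a minimum count of 10 and total of 15, Benjamini-Hochberg adjustment over all tested genes, threshold 0.05), tested on simulated data; a standard error is the absolute log2 difference over the square root of F. DESeq2 1.42.0, other scalings and filters, a single fit of all libraries, a replicate block and the omission of each library were alternatives. Named genes are the 10 members, at most 3 genes of smallest p-value per list with textbook partners, and the 10 genes most like the habenula profile (log2 CPM, prior count 2). Members and lists were chosen with earlier results of these data known. No 2 libraries agreed within sampling noise. Depth limits Chrnb4, Chrna3, Gpr151 and Pou4f1, whose counts reached at most 74 per library; intervals and floors cover counting error only. The paper's methods give 3 mice to a group, but the labels do not tie each library to its own mouse; if libraries shared animals, p-values measure a spread that may be technical. Promoter windows came from RefSeq (GRCm38.p6) for 8 members. Gpr151 was not searched, because windows on chromosome 18 were left out, and Calb2 had no window in the source used.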

Additional observations from a re-analysis of the deposited data

How the results depend on the processing

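No member passed an adjusted p-value of 0.05 under any alternative, and the direction of Chrnb4, Chrna3, Gpr151, Pou4f1, Lef1, Nwd2 and Prkcd was the same under all of them. DESeq2 gave an adjusted p-value to only 3 members, Nwd2, Calb2 and Tcf7l2, so the other 7 could not pass there, and their lack of a call is no sign of stability. With 1 brain library left out, the number of members lower at an unadjusted p-value under 0.05 was 5 to 6 (5.90% to 13.3% of all genes), and the differences were -2.86 to -1.88 for Chrnb4, -1.83 to -1.41 for Chrna3, -2.35 to -1.53 for Gpr151, -2.64 to -1.31 for Pou4f1 and -1.83 to -0.92 for Lef1. The difference changed sign for Calb2, from 0.13 to -0.19 without control replicate 1 and to -0.52 without heat stress replicate 1 (range -0.52 to 0.52 with 1 library left out). For Tcf7l2 it was -1.41 to 0.51, positive only without control replicate 3. In liver Tcf7l2 was -0.23 to 0.18, positive only without liver control replicate 3, and its liver minus brain difference was -0.53 to 1.38, negative only without brain control replicate 3. For Tac2 the range was -0.35 to 0.030, positive only without heat stress replicate 3. The stricter filter, 1 CPM in 3 libraries, removed Chrnb4 and Pou4f1, which could not be tested there, and left 3 members lower at an unadjusted p-value under 0.05, where 10.1% of all genes in that fit were lower.

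Over all genes, DESeq2 called 604 in brain and 61 in liver by adjusted p-value, and 10 genes of the lists other than the members, where edgeR called 0 in each case. Of those 10, Tac1, Ppp1r1b, Drd1, Adora2a and Syndig1l were higher in heat stress and Lrrc55, Kl, Flt1, Abcb1a and Aldh1l1 lower. Library totals, no filter, the replicate block and the fit of all 12 libraries called 3, 8, 1 and 14 in liver. That last fit had 648 brain genes lower and 797 higher at an unadjusted p-value under 0.05 and 1388 genes in liver. With 1 library left out, brain had 886 to 1985 genes lower and 729 to 2042 higher, the lists 5 to 17 genes higher, and liver 414 to 1614 genes at that limit and 0 to 25 by adjusted p-value; the liver minus brain test had 0 to 1 member (Prkcd). The cause was not tested.

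Same-numbered brain libraries deviated with correlations of -0.29, 0.19 and -0.20. With 3 libraries per group these values cannot decide whether the numbers pair the samples, and the labels do not say. With the replicate block 6 members were lower at an unadjusted p-value under 0.05, and 1395 brain genes (9.42%) were lower and 1457 higher, with 321 genes in liver.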
